A study of Mus musculus with 39 samples.

Results

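The Ceacam genes encode carcinoembryonic antigen-related cell adhesion molecules, proteins of the immunoglobulin superfamily. The 5 members described here, Ceacam1, Ceacam2, Ceacam10, Ceacam18 and Ceacam20, were taken by name from the 34596 genes of 3 expression tables, 1 table per part of the intestine. RNA-seq had been made from 13 mice of 2 inbred strains, 6 BALB/cJ and 7 C57BL/6J. Colon, ileum and a sample labelled duodenum/jejunum were each sequenced from every mouse, which makes 39 libraries in 6 groups. No treatment, engineered genotype, age, sex or batch is given in the labels, so a strain stands for its whole genetic background, and whether the mice were housed together is not known. Levels are TPM, a transcript abundance per length that is scaled to the same total in every library. Each library was scaled alone and the 3 tissues were not normalised together, so a level set across tissues is a share of that tissue's RNA. Beside a TPM mean, ± is the SD, and beside a log2 difference it is the SE. All 5 members reached 1 TPM in at least 6 of the 13 libraries of every tissue and so passed the filter on low values, and no library was at 0 for any of them.

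Ceacam proteins bind each other, or bacteria and viruses, through an outer amino-terminal immunoglobulin domain, and the members differ in how they reach into the cell. Ceacam1 spans the membrane, and the long form of its tail carries inhibitory tyrosine motifs that recruit the phosphatases SHP-1 and SHP-2. It is also the receptor of mouse hepatitis coronavirus. Ceacam2 is a close mouse copy of Ceacam1, Ceacam10 is a secreted protein with no membrane anchor, and Ceacam18 is little studied. Ceacam20 sits on the microvilli of intestinal epithelial cells, carries an activating motif phosphorylated by Src and bound by the kinase Syk, and is dephosphorylated by the phosphatase SAP-1, the product of Ptprh.

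Aqp8, Fabp6 and Tmprss15, which mark colon, ileum and upper small intestine, went with the labels in 37 of the 39 libraries. The exceptions were the small intestine libraries of C57BL/6J mouse 2. Its ileum library had 22.1 TPM of Fabp6, the ileal bile acid binding protein, and 51.2 TPM of Tmprss15, the duodenal enteropeptidase. The other C57BL/6J ileum libraries held 3766 to 8189 TPM of Fabp6 and at most 0.0304 TPM of Tmprss15. Its duodenum/jejunum library had 6111 TPM of Fabp6 beside 39.2 TPM of Tmprss15, where the other libraries of that group held 3.12 to 32 and 12.2 to 57.9 TPM. Both libraries are kept under their labels, and most results on C57BL/6J small intestine are also given without them. Below, "without mouse 2" means without these 2 libraries.

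All 5 genes lie on mouse chromosome 7 (build GRCm38, GENCODE M21). Ceacam20 spans 19965412 to 19991104 on the plus strand and Ceacam10 spans 24777206 to 24784657 on the plus strand. Ceacam1, at 25461707 to 25477603, and Ceacam2, at 25516042 to 25539857, are neighbours on the minus strand, and Ceacam18 lies farther off at 43634707 to 43649295 on the plus strand. Of the 3796 distinct 31-base words in the annotated Ceacam2 transcripts, 56.5% also occur in those of Ceacam1, and 36.2% of the words of Ceacam1 occur in those of Ceacam2. Reads from the shared parts can be split between these 2 genes only by estimation, so the level of Ceacam2, the much lower of the pair, is uncertain. Of the Ceacam10 words 4.69% occur in Ceacam1, and of the Ceacam18 and Ceacam20 words 0.62% and 3.68% occur in any other gene.

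The promoters show which members share sequence before the start site. RefSeq (GRCm38.p6) gives a promoter for all 5 genes. The 4 printed here are those of Ceacam1 and Ceacam10, whose promoters aligned over the longest stretch, of Ceacam2, and of Ceacam18, which had the opposite order along the intestine. Each reads 5′ to 3′ in the direction of the gene and ends at the RefSeq start, except that the Ceacam18 stretch stops before the first annotated base of the gene. Capitals mark matches on either strand to the E-box CACGTG, to the letters TTTATG bound by CDX factors, to AGATAA of the GATA factors and to CAAAGT of HNF4. No searched motif overlaps another in these stretches.
Ceacam1 chr7:25477626-25477875 minus strand: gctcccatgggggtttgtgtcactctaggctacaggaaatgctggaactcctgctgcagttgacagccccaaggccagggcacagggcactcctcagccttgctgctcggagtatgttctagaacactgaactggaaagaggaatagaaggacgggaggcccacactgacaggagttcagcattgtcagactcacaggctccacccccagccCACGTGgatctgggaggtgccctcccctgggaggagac
Ceacam10 chr7:24776917-24777166 plus strand: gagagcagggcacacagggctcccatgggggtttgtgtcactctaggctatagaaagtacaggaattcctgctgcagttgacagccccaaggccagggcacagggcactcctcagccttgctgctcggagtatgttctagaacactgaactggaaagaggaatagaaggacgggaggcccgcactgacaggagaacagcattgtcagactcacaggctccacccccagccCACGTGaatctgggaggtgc
Ceacam2 chr7:25540005-25540254 minus strand: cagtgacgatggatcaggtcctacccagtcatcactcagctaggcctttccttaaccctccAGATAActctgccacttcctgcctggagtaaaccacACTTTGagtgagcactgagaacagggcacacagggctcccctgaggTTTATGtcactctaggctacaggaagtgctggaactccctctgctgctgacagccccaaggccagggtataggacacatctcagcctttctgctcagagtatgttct
Ceacam18 chr7:43634489-43634706 plus strand: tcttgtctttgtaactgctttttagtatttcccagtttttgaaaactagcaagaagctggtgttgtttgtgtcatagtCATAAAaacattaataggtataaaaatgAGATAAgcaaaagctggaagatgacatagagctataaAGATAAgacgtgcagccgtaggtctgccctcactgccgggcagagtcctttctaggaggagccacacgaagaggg

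The Ceacam1 and Ceacam10 promoters aligned without a gap over 232 bases, of which 222 (95.7%) were identical. Both hold the E-box CACGTG, starting 38 bases before the start in Ceacam1 and 20 before it in Ceacam10. That motif is found in 6.05% of 27025 promoters of the same 250-base length. Ceacam2 aligned with Ceacam1 over 120 bases at 86.7% identity. That match ran from the first base of the Ceacam1 window to the last base of the Ceacam2 window, so the windows limit its length. The E-box is not in the Ceacam2 window. The part of Ceacam2 that would lie opposite the Ceacam1 E-box is past that window and was not searched. The GATA letters AGATAA stand at 144 and 107 bases before the RefSeq start of Ceacam18, which lies past the end of its printed stretch. They occur once in Ceacam2, and 10.3% of all promoters hold them. The CDX letters TTTATG occur in Ceacam18 and Ceacam2 (11.1% of promoters), and CAAAGT in Ceacam2 and in Ceacam20 (12.5%). The HNF1 letters GTTAAT (6.52% of promoters) occur in none of the 5 windows. The motifs were chosen after the promoters had been read, and a match is a description of letters only.

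Along the intestine the members fell into 3 patterns. Ceacam1, Ceacam10 and Ceacam2 were highest in colon, Ceacam18 was highest in duodenum/jejunum, and Ceacam20 was highest in ileum. A gene was called at an adjusted p under 0.05 in limma over all genes tested. Between colon and ileum, 5 of the 5 members were called in BALB/cJ, where 46.2% of 17143 genes were, and 5 of 5 in C57BL/6J, where 61.7% were. Between colon and duodenum/jejunum it was 4 of 5 in each strain, against 63.5% of genes in BALB/cJ and 64.7% in C57BL/6J. Between ileum and duodenum/jejunum it was also 4 of 5 in each strain, against 43.1% in BALB/cJ and 11.4% in C57BL/6J. That last share was 20.8% without mouse 2 and 57.3% relative to the mean of 12 epithelium markers, and without mouse 2 the members' counts in C57BL/6J were the same 5, 4 and 4. With so many genes called, the members' counts alone say little, and the sizes and orders carry the description. The median difference over all genes was itself above 0, at 0.29 in BALB/cJ and 0.28 in C57BL/6J on the log2 scale for colon minus duodenum/jejunum.

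**Figure D1:**
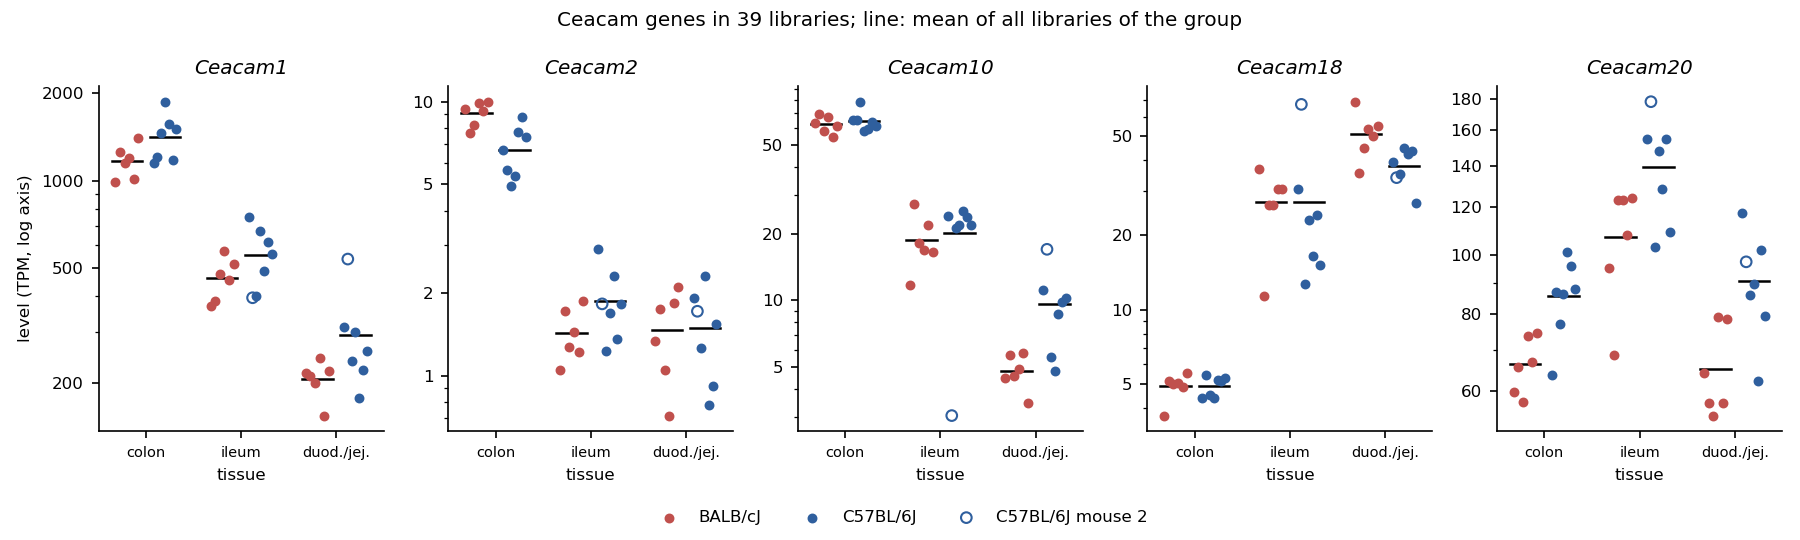
Level of each Ceacam gene (TPM, log axis) in every library, by tissue and strain; points are libraries, lines are group means, and open circles are the 2 small intestine libraries of C57BL/6J mouse 2. Ceacam1 lies between 987 and 1873 TPM in colon and falls to a mean of 208 TPM in BALB/cJ duodenum/jejunum, while Ceacam18 rises from about 4.9 TPM in colon of both strains.

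Ceacam1, the adhesion receptor with the inhibitory tail, was the most abundant member in every group. In BALB/cJ colon it ranged from 987 to 1405 TPM with a median of 1173, in ileum from 369 to 571 with a median of 465, and in duodenum/jejunum from 155 to 245 with a median of 215. In C57BL/6J the ranges were 1150 to 1873 (median 1456), 395 to 748 (median 558) and 178 to 537 TPM (median 258). The 3 BALB/cJ ranges did not touch, and in C57BL/6J the ileum and duodenum/jejunum overlapped through the 395 and 537 TPM of mouse 2.

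Group means were 1168 ± 155, 462 ± 77.3 and 208 ± 29.9 TPM in BALB/cJ (SD, n = 6) and 1420 ± 262, 554 ± 135 and 293 ± 117 TPM in C57BL/6J (SD, n = 7). The means were 581 ± 126 and 252 ± 50.0 TPM in the C57BL/6J ileum and duodenum/jejunum without mouse 2. Ceacam1 fell from colon to ileum by a log2 difference of 1.34 ± 0.18 (SE) in BALB/cJ and 1.37 ± 0.17 in C57BL/6J, with adjusted p of 7.9e-08 and 5.8e-09, the latter difference 1.30 without mouse 2. From ileum to duodenum/jejunum the difference was 1.14 ± 0.18 (adjusted p 7.1e-06) and 0.96 ± 0.17 (0.00012), the latter 1.2 without mouse 2. Within a mouse, colon exceeded duodenum/jejunum by 4.53- to 6.54-fold in BALB/cJ and by 2.25- to 8.82-fold in C57BL/6J, where the lowest ratio is that of mouse 2.

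Ceacam10, the secreted member, had the same order with a steeper slope. In BALB/cJ it ranged from 54.3 to 69.3 TPM in colon (median 62.2), from 11.7 to 27.2 in ileum (median 17.4) and from 3.44 to 5.79 in duodenum/jejunum (median 4.73). In C57BL/6J the ranges were 58.1 to 78.6 (median 63.7), 3.03 to 25.3 (median 21.9) and 4.80 to 17 TPM (median 9.86). Mouse 2 gave both the lowest C57BL/6J ileum value, 3.03, and the highest duodenum/jejunum value, 17 TPM. The other 6 C57BL/6J ileum libraries lay between 21.1 and 25.3 TPM.

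The Ceacam10 means were 62.2 ± 5.68, 18.7 ± 5.29 and 4.81 ± 0.866 TPM in BALB/cJ and 64.4 ± 6.87, 20.2 ± 7.70 and 9.62 ± 4.03 TPM in C57BL/6J. Without mouse 2 the C57BL/6J means were 23 ± 1.62 and 8.39 ± 2.62 TPM in ileum and duodenum/jejunum. Colon was 12.9-fold higher than duodenum/jejunum in BALB/cJ (log2 difference 3.45 ± 0.29, adjusted p 4.7e-13) and 6.69-fold higher in C57BL/6J (2.71 ± 0.26, adjusted p 3.2e-11), or 7.67-fold (2.85) without mouse 2. From ileum to duodenum/jejunum Ceacam10 fell by 1.73 in BALB/cJ (adjusted p 1.3e-05) and by 0.90 in C57BL/6J (adjusted p 0.0215), or by 1.41 (adjusted p 5e-09) without mouse 2. Set against the mean of 12 epithelium markers in the same library, the C57BL/6J difference was 0.50 and not called (adjusted p 0.0696). The median over all genes was then -0.356.

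Ceacam1 and Ceacam10 both ran colon over ileum over duodenum/jejunum in 6 of 6 BALB/cJ mice and in 6 of 7 C57BL/6J mice. The exception for both genes was C57BL/6J mouse 2, in which duodenum/jejunum exceeded ileum. Over the 12 other mice, 3.80% of the genes tested had this order in every mouse.

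Ceacam2, the close copy of Ceacam1, was a colon transcript at a low level. In colon it ranged from 7.70 to 10 TPM in BALB/cJ (median 9.31) and from 4.93 to 8.76 TPM in C57BL/6J (median 6.66). In ileum the ranges were 1.05 to 1.88 and 1.23 to 2.90 TPM, and in duodenum/jejunum 0.716 to 2.10 and 0.780 to 2.31 TPM. Every colon library exceeded every small intestine library of its strain.

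Ceacam2 means were 9.08 ± 0.940, 1.43 ± 0.317 and 1.47 ± 0.526 TPM in BALB/cJ and 6.64 ± 1.41, 1.88 ± 0.571 and 1.5 ± 0.547 TPM in C57BL/6J. Colon exceeded ileum by 6.33-fold in BALB/cJ (log2 difference 2.05 ± 0.15, adjusted p 3.7e-14) and by 3.53-fold in C57BL/6J (1.41 ± 0.14, adjusted p 6.7e-11), or 3.52-fold without mouse 2. The ileum and duodenum/jejunum did not differ beyond their spread, with differences of 0.00 (95% interval -0.31 to 0.31) and 0.21 (-0.07 to 0.50), the latter 0.24 without mouse 2. The BALB/cJ difference relative to the epithelium markers became -0.62 and was called (adjusted p 0.00176). In that setting 62.1% of all genes were called and the median over all genes was -0.415. Colon was the highest of the 3 tissues in all 13 mice, and 21.4% of the genes tested had colon highest in the 12 mice other than C57BL/6J mouse 2. Ceacam2 took only 0.701% of the summed TPM of the 5 genes in BALB/cJ colon.

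Ceacam18 ran the other way. It was at 3.73 to 5.55 TPM in BALB/cJ colon (median 5.02) and 4.38 to 5.46 TPM in C57BL/6J colon (median 5.14). In ileum the ranges were 11.3 to 37 (median 28.6) and 12.7 to 67.4 TPM (median 22.9), and in duodenum/jejunum 35.5 to 69.1 (median 51.9) and 26.9 to 44.8 TPM (median 39.4). No colon library came near the small intestine, and the 67.4 TPM is the library labelled ileum of C57BL/6J mouse 2.

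Means of Ceacam18 were 4.89 ± 0.614, 27.1 ± 8.62 and 51.4 ± 11.2 TPM in BALB/cJ and 4.90 ± 0.464, 27.1 ± 18.8 and 38.1 ± 6.39 TPM in C57BL/6J. Without mouse 2 the C57BL/6J ileum mean was 20.4 ± 6.73 TPM. Duodenum/jejunum exceeded colon by 10.5-fold in BALB/cJ (log2 difference -3.13 ± 0.24 for colon minus duodenum/jejunum, adjusted p 8.6e-14) and by 7.76-fold in C57BL/6J (-2.71 ± 0.23, adjusted p 4.8e-13), or 7.90-fold without mouse 2. Between ileum and duodenum/jejunum the difference was -0.95 (adjusted p 0.00203) in BALB/cJ. In C57BL/6J it was -0.66 and only just called (adjusted p 0.0498), or -0.94 (adjusted p 0.00037) without mouse 2. Duodenum/jejunum exceeded ileum and ileum exceeded colon in 6 of 6 BALB/cJ and 6 of 7 C57BL/6J mice, mouse 2 again being the exception. This order was seen in 1.92% of the genes tested over the 12 other mice.

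Ceacam20, the microvillus member with the activating motif, was highest in ileum in each of the 12 mice other than C57BL/6J mouse 2, as were 2.15% of the genes tested. In mouse 2 it was at 178 TPM in the library labelled ileum, whose region markers went against that label. It was at 97.5 TPM in the library labelled duodenum/jejunum, which held markers of both regions. In BALB/cJ it ranged from 57.6 to 74.6 TPM in colon (median 66.3), from 68.8 to 124 in ileum (median 115) and from 54.7 to 79.2 in duodenum/jejunum (median 60.8). In C57BL/6J the ranges were 63.6 to 101 (median 86.9), 103 to 178 (median 148) and 62.3 to 117 TPM (median 89.6). The duodenum/jejunum range contained the colon range in both strains.

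The Ceacam20 means were 66.4 ± 6.97, 107 ± 21.8 and 65.2 ± 11 TPM in BALB/cJ and 85.6 ± 12.2, 139 ± 27 and 90.6 ± 17.5 TPM in C57BL/6J. Ileum exceeded colon by 1.61-fold in BALB/cJ (log2 difference -0.65 ± 0.15 for colon minus ileum, adjusted p 0.00028) and by 1.63-fold in C57BL/6J (-0.69 ± 0.13, adjusted p 3.3e-05). It exceeded duodenum/jejunum by 1.64-fold (0.69 ± 0.15, adjusted p 0.00027) and 1.54-fold (0.62 ± 0.13, adjusted p 0.00162). Without mouse 2 the C57BL/6J ileum mean was 133 ± 23.1 TPM, 1.55-fold over colon (-0.63) and 1.49-fold over duodenum/jejunum (0.58, adjusted p 0.0028). Colon and duodenum/jejunum were not separated, with differences of 0.03 (95% interval -0.26 to 0.33) in BALB/cJ and -0.07 (-0.34 to 0.20) in C57BL/6J, the latter -0.05 without mouse 2. Median-of-ratios scaling turned these to -0.33 (adjusted p 0.0695) and -0.41 (adjusted p 0.0158). Relative to the epithelium markers, which were themselves lowest in duodenum/jejunum, they were -0.80 and -0.92 and both called. In that setting 74% and 78.7% of all genes were called, with medians of -0.539 and -0.569. The ileum then no longer exceeded duodenum/jejunum (0.07, adjusted p 0.697, and 0.22, adjusted p 0.186), beside medians of -0.415 and -0.356 over all genes. The same amount is subtracted from every gene of a library, so these changes are not particular to Ceacam20.

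**Figure D2:**
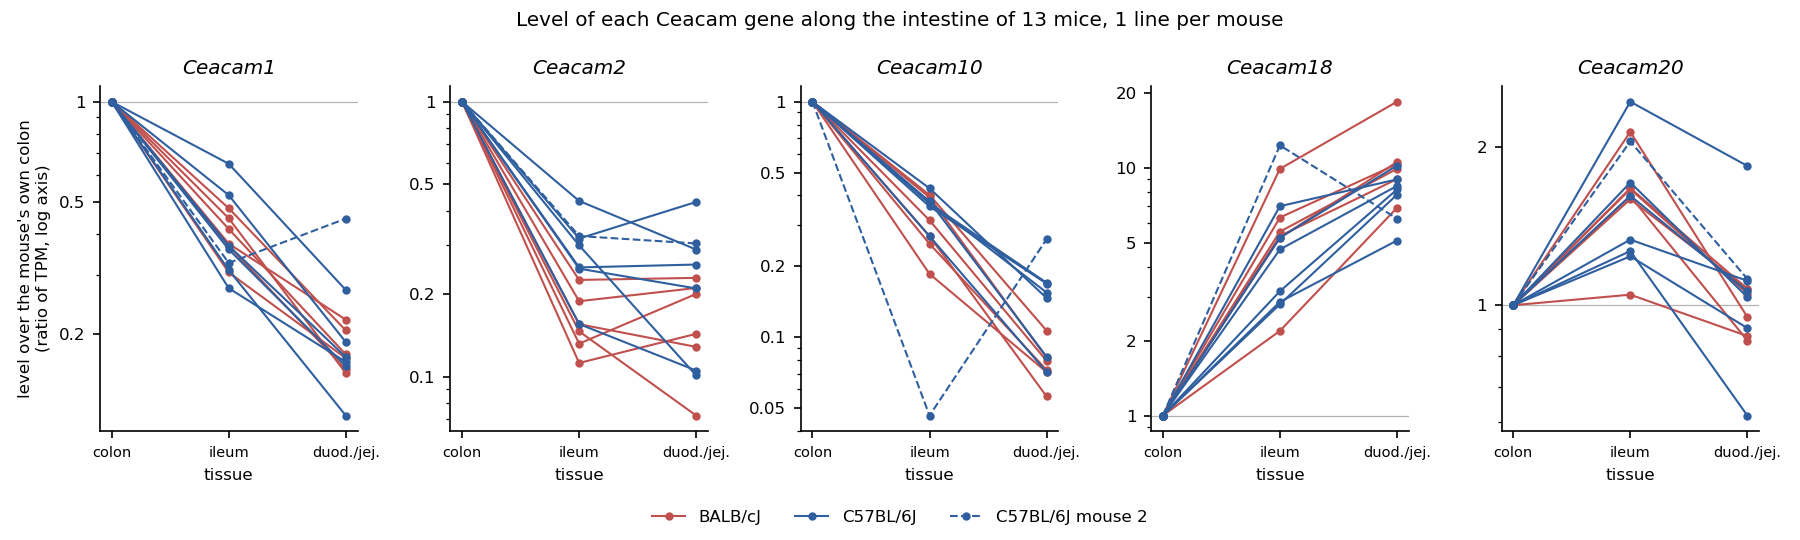
Level of each Ceacam gene in ileum and duodenum/jejunum as a ratio to the colon of the same mouse (log axis), 1 line per mouse; the dashed line is C57BL/6J mouse 2. In BALB/cJ mice Ceacam10 is 9.39- to 17.8-fold lower in duodenum/jejunum than in colon, Ceacam18 rises in every mouse, and Ceacam20 peaks in ileum in the 12 mice other than C57BL/6J mouse 2.

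The makeup of the summed family level changed along the intestine. The 5 genes summed to 1311 ± 162, 616 ± 96.7 and 331 ± 42.0 TPM in BALB/cJ colon, ileum and duodenum/jejunum, and to 1582 ± 263, 743 ± 146 and 432 ± 128 TPM in C57BL/6J (759 ± 153 and 390 ± 65.7 TPM in its small intestine without mouse 2). Ceacam1 took 89.0%, 74.9% and 62.8% of that sum in BALB/cJ and 89.6%, 74.2% and 66.3% in C57BL/6J, or 76.3% and 64.4% in the last 2 without mouse 2. The share of Ceacam20 went from 5.10% in BALB/cJ colon to 19.7% in duodenum/jejunum, although its mean level was 66.4 TPM in the first and 65.2 TPM in the second.

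Ceacam18 went from 0.373% of the sum in BALB/cJ colon to 15.6% in duodenum/jejunum, and from 0.318% to 9.44% in C57BL/6J, or 10.2% without mouse 2. In BALB/cJ duodenum/jejunum the order by level was Ceacam1, Ceacam20, Ceacam18, Ceacam10 and Ceacam2, and Ceacam20 and Ceacam18 overlapped there (54.7 to 79.2 against 35.5 to 69.1 TPM). In colon of both strains the order was Ceacam1, Ceacam20, Ceacam10, Ceacam2 and Ceacam18. There, Ceacam20 and Ceacam10 did not differ beyond their spread in BALB/cJ (66.4 ± 6.97 and 62.2 ± 5.68 TPM).

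**Figure D3:**
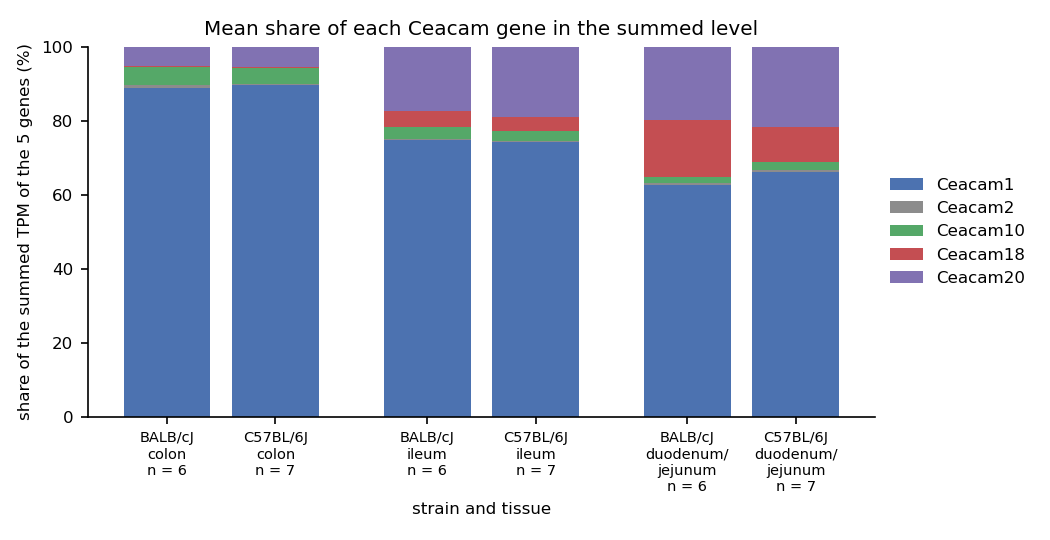
Mean share of each Ceacam gene in the summed TPM of the 5 genes (%), by strain and tissue, over 6 BALB/cJ or 7 C57BL/6J libraries. Ceacam1 makes up 89.0% of the sum in BALB/cJ colon and 62.8% in BALB/cJ duodenum/jejunum, where Ceacam20 (19.7%) and Ceacam18 (15.6%) fill most of the rest.

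No member had strain groups without overlap in any tissue. The strain means differed by at most 1.40-fold for Ceacam1, Ceacam2, Ceacam18 and Ceacam20 and by 2.00-fold for Ceacam10 in duodenum/jejunum, or 1.75-fold without mouse 2. In colon 2 of 5 members were called, where 25.3% of 15786 genes were. In ileum 0 of 5 were called, where 20.4% of 15553 genes were. There limma gave 1 of the 5, Ceacam20, an unadjusted p under 0.05 (0.0281), as did the exact permutation test (0.0396). In duodenum/jejunum 1 of 5 was called, where 9.49% of 15322 genes were. The members' counts without mouse 2 were again 0 in ileum and 1 in duodenum/jejunum. Groups without overlap made up 11.4%, 9.81% and 5.36% of the genes tested in colon, ileum and duodenum/jejunum.

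Ceacam20 had the lower mean in BALB/cJ in each tissue, and only the colon difference was called. In colon the means were 66.4 ± 6.97 TPM in BALB/cJ and 85.6 ± 12.2 TPM in C57BL/6J, a log2 difference of -0.35 ± 0.10 (95% interval -0.56 to -0.15, adjusted p 0.0155). In 6 of the 7 C57BL/6J colons Ceacam20 exceeded every BALB/cJ colon, and the lowest, at 63.6 TPM, lay inside the BALB/cJ range. In ileum the difference was -0.39 ± 0.16 (adjusted p 0.0955), and in duodenum/jejunum -0.46 ± 0.14 (adjusted p 0.0515), neither called, and without mouse 2 they were -0.32 (0.14) and -0.44 (0.0864). In duodenum/jejunum, median-of-ratios scaling and robust estimation of the spread brought the adjusted p to 0.0339 and 0.048. The colon difference relative to the epithelium markers was -0.19 and was not called (adjusted p 0.12), beside a median of 0.183 over all genes.

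Ceacam2 was 1.37-fold higher in BALB/cJ colon (9.08 ± 0.940 against 6.64 ± 1.41 TPM), a log2 difference of 0.42 ± 0.12 (95% interval 0.17 to 0.67, adjusted p 0.0174). In colon 4 of 6 BALB/cJ values, 9.26 to 10 TPM, lay above the highest C57BL/6J value, 8.76 TPM. Its differences in ileum and duodenum/jejunum were -0.23 (95% interval -0.53 to 0.07) and -0.01 (-0.39 to 0.36), or -0.23 and 0.01 without mouse 2. Because Ceacam2 shares much of its sequence with Ceacam1, which was 1.22-fold lower in BALB/cJ colon, its level depends on how shared reads were divided, and that was not tested.

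Ceacam10 was 2.00-fold lower in BALB/cJ duodenum/jejunum (4.81 ± 0.866 against 9.62 ± 4.03 TPM), a log2 difference of -0.80 ± 0.22 (adjusted p 0.0335). The BALB/cJ libraries lay between 3.44 and 5.79 TPM. In C57BL/6J, 2 libraries, at 4.80 and 5.59 TPM, lay inside that range and 5 lay above it. Without mouse 2 the difference was -0.65 (adjusted p 0.0471). The call was lost without a filter on low values (adjusted p 0.0672), with median-of-ratios scaling (0.051) and relative to the epithelium markers (0.0841). In colon the Ceacam10 difference was -0.05 (95% interval -0.21 to 0.11), and in ileum 0.04, or -0.33 (adjusted p 0.129) without mouse 2.

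Ceacam1 had lower means in BALB/cJ in all 3 tissues without a call: -0.27 in colon (95% interval -0.52 to -0.02, adjusted p 0.11), -0.24 in ileum (-0.60 to 0.11) and -0.42 in duodenum/jejunum (-0.85 to 0.01, adjusted p 0.251). Without mouse 2 the last 2 were -0.32 and -0.26. Ceacam18 differed by -0.01 in colon (95% interval -0.19 to 0.17). In duodenum/jejunum its mean was 1.35-fold higher in BALB/cJ without a call (0.41, 95% interval 0.10 to 0.73, adjusted p 0.104). Relative to the epithelium markers the difference was 0.57 and called (adjusted p 0.0382). In that setting 13.3% of all genes were called and the median over all genes was 0.163. The TPM difference without mouse 2 was 0.39 (adjusted p 0.161). In ileum, where the median of all genes lay 0.17 higher in BALB/cJ, the Ceacam18 difference was 0.13 (1.0-fold), or -0.06 with median-of-ratios scaling. With mouse 2 left out the ileum means were 27.1 and 20.4 TPM, 1.33-fold higher in BALB/cJ without a call (0.38, 95% interval -0.19 to 0.94, adjusted p 0.312).

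**Figure D4:**
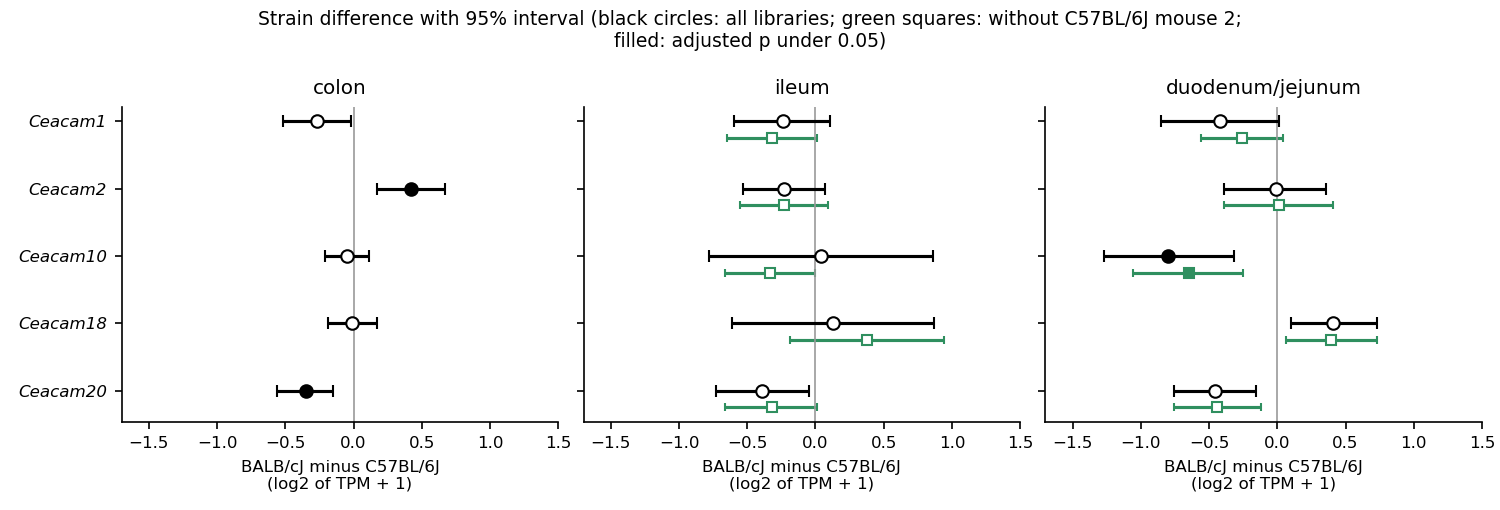
Strain difference of each Ceacam gene in each tissue, BALB/cJ minus C57BL/6J, on the log2(TPM + 1) scale with 95% intervals; black circles are all libraries, green squares leave out C57BL/6J mouse 2, and filled symbols passed the threshold. Ceacam2 (0.42) and Ceacam20 (-0.35) are called in colon and Ceacam10 (-0.80) in duodenum/jejunum.

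Whether a strain difference itself changed between tissues was tested with interaction terms. Of the 5 members, 0 were called for colon against ileum, where 4.07% of genes were, 0 for colon against duodenum/jejunum (5.59%), and 0 for ileum against duodenum/jejunum (3.93%). At an unadjusted p under 0.05 limma gave Ceacam2 for colon against ileum (0.65 ± 0.21, p 0.00367, adjusted p 0.071) and colon against duodenum/jejunum (0.43, p 0.0461), and Ceacam10 for ileum against duodenum/jejunum (0.83, p 0.0391). Without mouse 2 this Ceacam10 term was 0.33 (p 0.138, adjusted p 0.373), its term for colon against duodenum/jejunum was 0.61 (p 0.00672, adjusted p 0.0758), and the Ceacam2 terms were 0.65 and 0.40. The Ceacam2 term for colon against ileum was called with a pseudocount of 5 (0.37, adjusted p 0.0151), with median-of-ratios scaling (0.74, adjusted p 0.0394) and relative to the epithelium markers (0.87, adjusted p 0.0209). For Ceacam20 the terms were 0.03 (95% interval -0.37 to 0.43), 0.11 (-0.29 to 0.51) and 0.07 (-0.33 to 0.47), or -0.03, 0.08 and 0.11 without mouse 2. So the call of Ceacam10 in duodenum/jejunum alone is not shown to be a difference between tissues.

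The signalling partners of the family were read from a list of 21 genes, all tested. In colon 4 were higher and 4 lower in BALB/cJ, in ileum 1 and 2, and in duodenum/jejunum 0 and 4. Of all genes tested 25.3%, 20.4% and 9.49% were called in these tissues. The partners' counts without mouse 2 were 1 and 2 in ileum, where 23.5% of all genes were called, and 0 and 3 in duodenum/jejunum, where 8.92% were. The list's median difference was -0.02, 0.15 and -0.15, beside 0.02, 0.17 and 0.01 over all genes. Ptprh, the phosphatase that acts on Ceacam20, was lower in BALB/cJ colon, with 78.3 to 122 TPM (mean 91.5 ± 16) against 111 to 168 TPM (135 ± 18.9) in C57BL/6J, a log2 difference of -0.56 (adjusted p 0.00157). In ileum it was at 163 ± 35.5 against 255 ± 57.3 TPM (-0.64, adjusted p 0.0133), and in duodenum/jejunum at 183 ± 33.4 against 248 ± 45.7 TPM (-0.44, adjusted p 0.0669). Without mouse 2 these 2 differences were -0.55 (adjusted p 0.0124) and -0.45 (0.0811). Ceacam20 and Ptprh were thus both called lower in BALB/cJ colon, and only Ptprh was called in ileum.

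Along the intestine Ptprh did not follow Ceacam20 on the TPM scale. Ptprh was lower in colon than in duodenum/jejunum by 0.99 in BALB/cJ and by 0.86 in C57BL/6J (0.87 without mouse 2). Ceacam20 did not separate those tissues on that scale, and with the other scalings given above it was also lower in colon. Syk, the kinase that binds the phosphorylated Ceacam20 tail and is also abundant in leukocytes, went from 40.0 ± 4.79 TPM in BALB/cJ colon to 28 ± 5.20 in ileum and 11.9 ± 1.92 in duodenum/jejunum. In C57BL/6J the Syk means were 34 ± 2.72, 20.5 ± 5.91 and 12.9 ± 2.29 TPM, and colon minus duodenum/jejunum was 1.67 and 1.34 in the 2 strains, both called, the latter 1.39 without mouse 2. Between strains Syk was higher in BALB/cJ colon by 0.22 (adjusted p 0.0487).

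**Figure D5:**
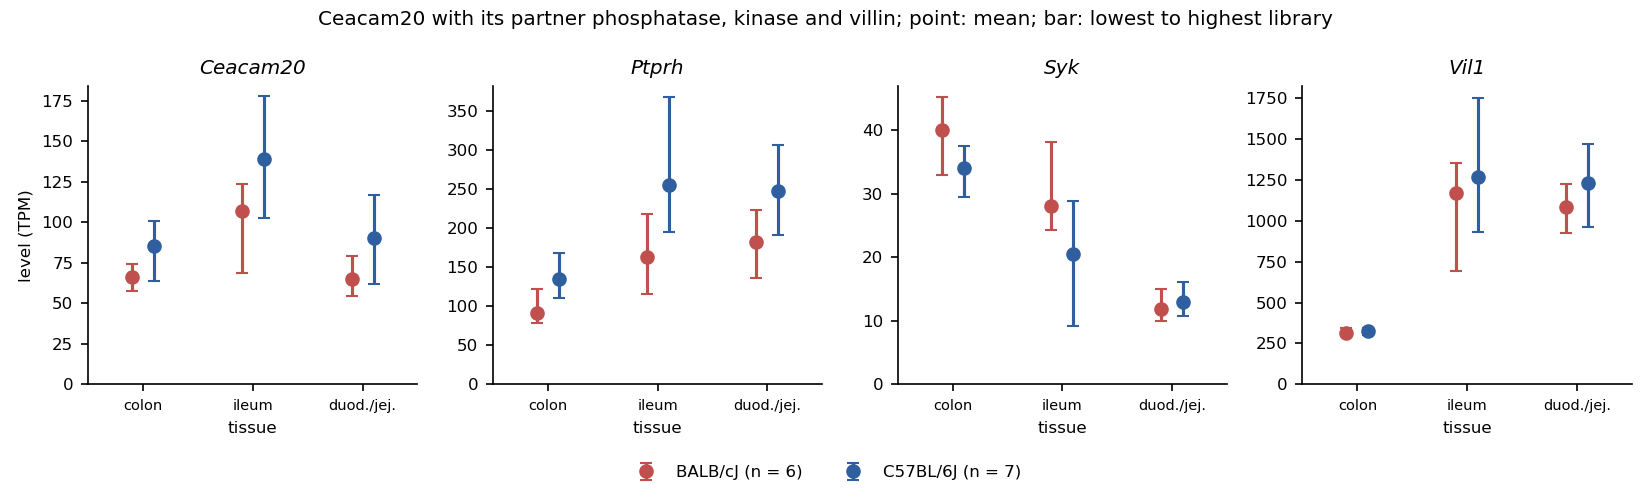
Mean level (TPM) of Ceacam20, its phosphatase Ptprh, the kinase Syk and the microvillus protein gene Vil1 by tissue and strain; bars run from the lowest to the highest library of 6 BALB/cJ or 7 C57BL/6J mice. Ceacam20 peaks in ileum, Ptprh is lowest in colon, Syk is highest in colon, and Vil1 has means of 316 and 324 TPM in colon and of 1084 to 1263 TPM in the small intestine.

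Of the other partners, Egfr, a receptor tyrosine kinase, was lower in BALB/cJ colon (26.9 ± 2.92 against 39.0 ± 2.60 TPM, -0.52, adjusted p 5.5e-05). Havcr2, which encodes the immune receptor TIM-3, a binding partner of Ceacam1, was higher there at a low level (2.5 ± 0.639 against 1.38 ± 0.240 TPM, 0.54, adjusted p 0.00303). Ptpn11, which encodes SHP-2, was higher in BALB/cJ ileum by 0.19 (adjusted p 0.0417), or 0.17 (0.0458) without mouse 2. The median over all genes lay 0.17 higher in BALB/cJ ileum, or 0.16 without mouse 2, so the Ptpn11 difference is about the size of that general shift. Calm2, encoding calmodulin, which binds the Ceacam1 tail, was lower in BALB/cJ duodenum/jejunum (-0.35, adjusted p 0.0179), as was Lyn, a Src family kinase (-0.30, adjusted p 0.0208), and without mouse 2 these were -0.36 and -0.27, both called.

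Markers of the microvilli and of other cells were read beside the members, since in bulk tissue fewer cells of a type and less RNA per cell cannot be told apart. Of 16 brush border genes, 15 were lower and 1, Baiap2l1, was higher in colon than in either small intestine part in both strains, with list medians from -1.38 to -1.24 (-1.19 and -1.26 in C57BL/6J without mouse 2). In these contrasts 46.2% to 64.7% of all genes were called. Vil1, encoding villin, was at 316 ± 20.7 TPM in BALB/cJ colon and 1170 ± 250 TPM in ileum. Ceacam20 was likewise lower in colon than in ileum (-0.65 in BALB/cJ and -0.69 in C57BL/6J). On the TPM scale it did not separate colon from duodenum/jejunum, which depended on the scaling as given above. Between strains 3 of 15 brush border genes tested were called in colon, where 25.3% of all genes were: Cdhr5 (-0.40) and Cdhr2 (-0.17), protocadherins of the microvillus tips, and Anpep (0.40), an aminopeptidase. None of 16 was called in ileum, where 20.4% of all genes were. In duodenum/jejunum, where 9.49% were, Pls1, encoding a fimbrin, was called (-0.41, adjusted p 0.00507, or -0.43 without mouse 2).

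Colons of the 2 strains also differed in other cell markers. The share of all genes called was 25.3% in colon, 20.4% in ileum (23.5% without mouse 2) and 9.49% in duodenum/jejunum. Of 12 leukocyte markers 10 were higher in BALB/cJ colon (summed level 336 to 599 against 163 to 304 TPM), 4 in ileum (3 without mouse 2) and 0 in duodenum/jejunum. Ptprc, the pan-leukocyte gene CD45, was at 32.1 ± 5.77 against 17.3 ± 3.49 TPM in colon. Of 12 epithelium markers 5 were lower in BALB/cJ colon (11842 to 12950 against 12701 to 13369 TPM), among them Tspan8 (-0.35), Cdx1 (-0.39) and Cdx2 (-0.34), and 0 in the other tissues (2 in ileum without mouse 2). Epcam, an adhesion gene of all epithelium, was not called in colon (1112 ± 28.4 against 1090 ± 46.8 TPM).

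Of 6 endothelium markers 1 was higher in BALB/cJ colon, 4 in ileum (3 without mouse 2) and 0 in duodenum/jejunum. As above, 25.3%, 20.4% and 9.49% of all genes were called in these tissues, the last 2 being 23.5% and 8.92% without mouse 2. Of 20 interferon-stimulated genes 18 were higher in BALB/cJ colon (median difference 1.11), with Oas1a at 80.4 ± 12.3 against 34.4 ± 1.89 TPM, and none was lower. In ileum 2 were higher and 1 lower, and in duodenum/jejunum 0 and 3 (0 and 2 without mouse 2). No marker list had a gene at 0 in every library of a group. The part of these markers in the colon differences of Ceacam2 and Ceacam20 was not tested beyond the values relative to the epithelium list.

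Among the remaining Ceacam genes, 10 of 11 listed were in the tables and 1, Ceacam12, passed the filter. Ceacam12 was another colon transcript, at 3.58 ± 1.36 TPM in BALB/cJ and 3.65 ± 1.03 TPM in C57BL/6J colon and 0.165 to 0.258 TPM on average elsewhere. Its colon minus ileum difference was 1.80 and 1.88 in the 2 strains, both called. Ceacam13 lay under the filter, at 0.639 to 1.18 TPM in BALB/cJ colon and 0 to 0.512 TPM in C57BL/6J colon. It was named after its values were seen, and the other 8 Ceacam genes stayed below 0.4 TPM in every group mean. Of 13 pregnancy-specific glycoprotein genes, relatives of the family made mainly by the placenta, 2 passed the filter, and neither was called between strains. Psg16 had group means from 22.4 to 27.1 TPM and Psg23 from 2.63 to 3.92 TPM.

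Genes with the pattern most like each member were ranked by Pearson correlation of log2(TPM + 1) over the 39 libraries, among 12058 candidates. These libraries share 13 mice and 3 tissues, so the values mostly restate the tissue order and carry no p. For Ceacam1 they included Ptprj (0.969) and Mboat1 (0.967), and for Ceacam2 they were Tcf7l1 (0.962), AI854703 (0.959) and Lrrc8e (0.959). For Ceacam10 they were Noxa1 (0.98), Tspan1 (0.978) and Eif2s2 (0.976). For Ceacam18 they included Nat8f4 and Igsf23 (each 0.982). Ceacam20 had no partner as close, with Casp8 (0.898), Tprn (0.895) and Lrrc1 (0.887).

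Among the members, Ceacam1 and Ceacam10 correlated at 0.927 and Ceacam10 and Ceacam18 at -0.950 over the 39 libraries, while Ceacam1 and Ceacam20 stood at 0.074. The same pairs were then read with the 6 group means removed. Ceacam1 and Ceacam10 went to 0.349, and to -0.090 over the 37 libraries without mouse 2. Ceacam10 and Ceacam18 went to -0.690 and -0.403, still negative. Ceacam1 and Ceacam20 went to 0.487 and 0.672, and Ceacam18 and Ceacam20 to 0.610 and 0.603. So, pooled over the 6 groups, libraries above their group mean in Ceacam20 tended to be above it in Ceacam1 and Ceacam18. No group was read alone. Ceacam1 and Ceacam10 varied together between tissues, and not in these pooled deviations once mouse 2 was left out.

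Within groups, the genes closest to Ceacam1 were Gfpt1 (0.854), Duox2 (0.851) and B4galt1 (0.799), and over 37 libraries Gfpt1 (0.794), Crybg1 (0.793) and Tgfa (0.789). Those closest to Ceacam18 were Gsdmd (0.909), Tmem45b (0.895) and Slc28a2 (0.893), and those closest to Ceacam20 were Tmem150b (0.775), Pfkfb4 (0.772) and Myo15b (0.763). Over 37 libraries they were Cst6 (0.867), Slc28a2 (0.856) and Plin3 (0.854) for Ceacam18. For Ceacam20 they were then Ptk6 (0.777), Eps8l2 (0.771) and Pfkfb4 (0.764). For Ceacam10 they were Tceal9 and Tspan1 (both 0.878) and Spink4 (0.869), and none of these 3 stayed among its closest 3 over 37 libraries. Ceacam2 had only weak ones, led by Nfkbiz (0.555), or by Alg8 (0.552) over 37 libraries.

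The genes beside the members on chromosome 7 did not share a common order. Cd177, the gene next to Ceacam10 and a surface protein of neutrophils and epithelium, ran from 130 and 117 TPM in colon of BALB/cJ and C57BL/6J through 17.6 and 12.9 in ileum to 3.16 and 4.04 in duodenum/jejunum, the same order as Ceacam10. Lipe and Erich4, the flanking genes with a level beside Ceacam1 and Ceacam2, ran the other way, Lipe with 15.4 TPM in BALB/cJ colon and 61.4 in duodenum/jejunum and Erich4 with 1.84 and 78.1 TPM. Cxcl17, between them, stayed at or below 0.234 TPM.

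Next to Ceacam20, Igsf23, another immunoglobulin superfamily gene, followed the order of Ceacam18 instead, from 9.11 TPM in BALB/cJ colon to 149 TPM in duodenum/jejunum. Nlrp9b, on the other side of Ceacam20, was highest in ileum like Ceacam20 (23.4, 41.7 and 28.1 TPM in BALB/cJ, and 25.4, 55.1 and 37.9 TPM in C57BL/6J). Beside Ceacam18, Zfp719 was between 5.78 and 9.04 TPM in all groups, and Siglece and Ctu1 stayed between 0.935 and 5.98 TPM.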

How the data were processed

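RNA was measured in 39 libraries from colon, ileum and duodenum/jejunum of 6 BALB/cJ and 7 C57BL/6J mice. Per the labels' protocols, a PureLink kit was used for extraction and RiboZero depletion came before total RNA library preparation. Per the submitters' processing notes, kallisto 0.44.0 and build GRCm38 were used; which transcript annotation went with them is not stated. GRCm38 comes from C57BL/6J, and its effect on BALB/cJ values was not tested. The deposited values are log2 of TPM plus 1, made by the authors, 1 table per tissue with 34600 entries, of which 4 with repeated names were dropped. Turned back, libraries summed to 979558 to 996230 TPM, with 14557 to 16186 entries at 1 TPM or more. TPM keeps no read depth, so no counting error can be given, and the number of mice limits the precision.

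Genes at 1 TPM or more in at least 6 libraries were tested with limma 3.58.1 (R 4.3.3) with a mean-variance trend and Benjamini-Hochberg adjustment over all genes. Strain was fitted within each tissue, coded BALB/cJ minus C57BL/6J. Tissue and interaction contrasts used 6 group means over all 39 libraries. Log2 differences are on the log2(TPM + 1) scale, which understates the change of low genes; folds are ratios of mean TPM. The scripts were tested on simulated data. Libraries with 1 strain and number come from 1 animal; their deviations from the group means correlated with a median of 0.151 (39 pairs), and a fit with the mouse as a block was an alternative. Other alternatives changed the pseudocount, the filter, the scaling (median of ratios, or the mean log2 level of 12 epithelium markers subtracted), the spread model and the libraries used. Numbers shared across strains name different animals.

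The members and lists were chosen with earlier results of these data known. Named were all members, Ptprh, Syk, Vil1, Epcam and Ptprc, and, of other lists, called genes with up to the 3 smallest adjusted p per tissue, the 3 genes most alike each member, and the 2 protein-coding genes flanking each on either side; some genes that this rule names are not reported here. Promoters searched for motifs chosen after their letters were read are RefSeq's (GRCm38.p6), aligned with Biopython 1.88.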

Additional observations from a re-analysis of the deposited data

Results flagged for a closer look

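In groups of 4 to 10 libraries, a library was singled out where its gap to the nearest other exceeded Dixon's critical value for the group's range. Of 30 member groups tested, 4 held such a library, and chance flags about 1 in 20 groups. Ceacam1 stood at 537 TPM in C57BL/6J duodenum/jejunum of mouse 2, where the other 6 libraries reached at most 312 TPM. Ceacam10 stood at 3.03 TPM in C57BL/6J ileum of mouse 2, where the others lay between 21.1 and 25.3 TPM. Ceacam18 stood at 67.4 TPM in C57BL/6J ileum of mouse 2, where the others reached at most 30.7 TPM. Ceacam10 stood at 78.6 TPM in C57BL/6J colon of mouse 3, where the next highest was 65.2 TPM. Of these 4 values, 3 come from the small intestine libraries of C57BL/6J mouse 2. The one labelled ileum held region markers against its label, and the one labelled duodenum/jejunum held markers of both regions.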

How the results depend on the processing

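Values are log2 differences, BALB/cJ minus C57BL/6J or the tissue named before minus the one after, and the cause of each change below was not tested unless a value is given beside it. Over the members' tissue and strain contrasts and interactions, 603 of 663 alternative values kept direction and side of the threshold, 34 changed sign, 13 lost a call and 13 gained one. The gains include the permutation values given below, whose p is not adjusted, unlike that of the main call. No value called in the main fit changed sign.

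Calls lost: Ceacam10 strain in duodenum/jejunum (-0.80) without a filter (-0.80), with median-of-ratios scaling (-0.80), relative to the epithelium list (-0.64) and with the replicate block by mouse number (-0.77, adjusted p 0.0692); Ceacam18 C57BL/6J ileum minus duodenum/jejunum (-0.66) with pseudocounts of 0.1 (-0.69) and 5 (-0.57), no filter (-0.66), median-of-ratios scaling (-0.71) and no trend (-0.66). Calls were also lost relative to the epithelium list for Ceacam20 strain in colon (-0.19), Ceacam20 ileum minus duodenum/jejunum (0.07 in BALB/cJ, 0.22 in C57BL/6J) and Ceacam10 in C57BL/6J (0.50).

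Calls gained: Ceacam20 strain in duodenum/jejunum (-0.46) with median-of-ratios scaling, robust spread (-0.46) and the replicate block (-0.49, adjusted p 0.0454), and Ceacam20 C57BL/6J colon minus duodenum/jejunum with median-of-ratios scaling (-0.41). Relative to the epithelium list, Ceacam18 strain in duodenum/jejunum (0.57), Ceacam2 BALB/cJ ileum minus duodenum/jejunum (-0.62), Ceacam20 C57BL/6J colon minus duodenum/jejunum (-0.92) and the Ceacam2 colon-ileum interaction (0.87) gained calls, the last also with a pseudocount of 5 (0.37) and median-of-ratios scaling (0.74). Subtracting that list moved every gene of a library by the same amount. The exact permutation test, whose p is not adjusted, gave 0.0198 for Ceacam18 (0.41) and 0.0117 for Ceacam20 (-0.46) in duodenum/jejunum and 0.0396 for Ceacam20 in ileum (-0.39).

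Signs changed only for values that were not called in the main fit. Among them, Ceacam20 BALB/cJ colon minus duodenum/jejunum was called relative to the epithelium list (-0.80), and is counted here and not under calls gained. Relative to the epithelium list these were strain in colon for Ceacam10 (0.12) and Ceacam18 (0.16), strain in ileum for Ceacam10 (-0.02), strain in duodenum/jejunum for Ceacam2 (0.14), Ceacam2 C57BL/6J ileum minus duodenum/jejunum (-0.19), Ceacam20 BALB/cJ colon minus duodenum/jejunum (-0.80), and the interactions of Ceacam1 (0.20 colon-ileum, -0.04 ileum-duodenum/jejunum), Ceacam10 (0.14) and Ceacam18 (0.09) for colon-ileum and Ceacam20 (-0.14) for ileum-duodenum/jejunum. With median-of-ratios scaling they were strain in ileum for Ceacam10 (-0.14) and Ceacam18 (-0.06), Ceacam20 BALB/cJ colon minus duodenum/jejunum (-0.33), and interactions of Ceacam1 (0.14, -0.02), Ceacam10 (0.07), Ceacam18 (0.03) and Ceacam20 (-0.12). Without C57BL/6J mouse 2 they were strain in ileum for Ceacam10 (-0.33), strain in duodenum/jejunum for Ceacam2 (0.01), and interactions of Ceacam1 (0.05 colon-ileum, -0.01 colon-duodenum/jejunum, -0.06 ileum-duodenum/jejunum), Ceacam10 (0.28) and Ceacam20 (-0.03). A pseudocount of 5 turned Ceacam10 strain in ileum (-0.01), one of 0.1 turned Ceacam2 BALB/cJ ileum minus duodenum/jejunum (0.02), and the replicate block turned Ceacam18 strain in colon (0.01). A fit chosen after seeing the data, with the mouse as a replicate block and without mouse 2, turned interactions of Ceacam1 (0.01, -0.05, -0.06), Ceacam10 (0.28) and Ceacam20 (-0.02).

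The number of genes called in C57BL/6J ileum minus duodenum/jejunum went from 1946 to 3550 without mouse 2, 3974 with the block as well and 9819 relative to the epithelium list. For strain in ileum it went from 3173 to 1801 with median-of-ratios scaling, 1116 relative to the epithelium list and 929 with the replicate block, and for strain in colon from 3989 to 7460 relative to that list. Ileum-duodenum/jejunum interactions went from 673 to 395 without a filter, 111 with median-of-ratios scaling, 38 relative to the list and 1244 with the block and without mouse 2; colon-ileum ones from 697 to 445 and 1056 with the last 2 of these, and colon-duodenum/jejunum ones from 959 to 1714 with the last. Numbers across strains name different animals, same-numbered libraries of the 2 strains correlated with a median of -0.025, and 2 of 18 BALB/cJ libraries correlated best with their own number. The block by mouse changed no member's call in a tissue contrast or interaction.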
